A study of Mus musculus with 8 samples.

Results

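A set of imprinted genes that act on growth was followed through the 10 cell types of the mouse iris, in irises whose pupils had been dilated, constricted or left alone. The genes were listed by symbol as *Dlk1*, *Meg3*, *Rian*, *H19*, *Igf2*, *Igf2r*, *Peg3*, *Cdkn1c*, *Grb10* and *Plagl1*. Of these 10 genes, 8 were found among the 22873 genes of the count matrices, and *Rian* and *Igf2* were not analysed here. The set was selected on measured values, namely the dilated and untreated levels of *Dlk1* in dilator muscle and of *H19* in sphincter 1. Values from dilated against untreated irises in those 2 cell types are therefore a description of how the set was chosen, with no test, and these genes were tested only in the other 8 cell types and on constricted irises. In dilator muscle and sphincter 1, constricted irises were compared with the same untreated libraries that the choice used. Genes of 4 further lists were tested in all 10 cell types. The lists were chosen with earlier results of these data known, so their counts of calls are no support for a list.

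Nuclei came from irises of female albino mice aged 6 to 8 weeks, labelled WT, with a variable amount of ciliary body attached, and each library pooled 5 or 6 irises. Dilated irises (2 libraries) had received 5% phenylephrine, an alpha-adrenergic agonist, and 1% cyclopentolate, a muscarinic antagonist, as hourly drops for 6.5 hours in the dark. Constricted irises (3 libraries) had received hourly drops of 5% pilocarpine, a muscarinic agonist, for 6.5 hours in the light, and untreated irises (3 libraries) had received no drops. Drug and lighting went together in each treatment, so their parts in a difference cannot be told apart.

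Genomic imprinting leaves a gene active on only the maternal or only the paternal chromosome, and many imprinted genes tune growth in the embryo and placenta. The *Dlk1* domain holds a paternally expressed gene for a transmembrane, Delta-like relative of the Notch ligands and, downstream of it, maternally expressed noncoding RNAs, among them *Meg3* and *Mirg*. *H19* is a maternally expressed noncoding RNA next to *Igf2*, the gene of a growth factor that IGF2R, the product of *Igf2r*, clears from the cell surface. *Cdkn1c* encodes the cyclin-dependent kinase inhibitor p57, *Grb10* an adaptor that dampens insulin and IGF receptor signalling, and *Plagl1* and *Peg3* zinc finger proteins. In most adult tissues transcripts of *Dlk1* and *H19* are scarce after birth.

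In the GENCODE vM21 annotation of mm10, *Dlk1* spans chr12:109452823-109463336 on the plus strand, and *Meg3* (chr12:109541001-109571726) starts 77665 bases past its end on the same strand. *H19* lies at chr7:142575529-142578143 and *Cdkn1c* at chr7:143458339-143461050, both on the minus strand, and *Peg3* on the same chromosome at chr7:6703892-6730431. *Igf2r* (chr17:12682406-12769664, minus) shares 28354 bases with the antisense transcript *Airn*. Whether reads were assigned by strand is not given in the sources used here. It is therefore not known here whether reads of *Igf2r* and *Airn* were kept apart over that stretch. *Grb10* is at chr11:11930508-12038683 and *Plagl1* at chr10:13060504-13131694.

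Sequences of the *Dlk1* and *Meg3* promoters are shown because both genes stood higher in dilated dilator muscle. RefSeq promoter windows of GRCm38.p6 (250 bases before to 50 after a start) matched 6 of the 8 genes, with 8 windows in all. No window was found for *H19* or *Cdkn1c*. They were searched on both strands for the cAMP response element TGACGTCA, the site of CREB-family factors, and for its half-site TGACG, which the full element contains, and on the gene's strand for TATAAA. These motifs were chosen after the windows had been read, so their counts beside those of all windows are no result about the set. The *Dlk1* window (chr12:109452573-109452872, plus strand) and the first *Meg3* window (chr12:109540746-109541045, plus strand) follow, with the matched letters in capitals.
Dlk1: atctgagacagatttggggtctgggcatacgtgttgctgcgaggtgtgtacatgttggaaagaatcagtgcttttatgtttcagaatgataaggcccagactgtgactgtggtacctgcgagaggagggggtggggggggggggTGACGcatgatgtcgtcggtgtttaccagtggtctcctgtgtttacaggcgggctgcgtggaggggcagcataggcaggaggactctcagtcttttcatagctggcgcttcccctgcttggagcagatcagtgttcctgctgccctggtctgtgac
Meg3: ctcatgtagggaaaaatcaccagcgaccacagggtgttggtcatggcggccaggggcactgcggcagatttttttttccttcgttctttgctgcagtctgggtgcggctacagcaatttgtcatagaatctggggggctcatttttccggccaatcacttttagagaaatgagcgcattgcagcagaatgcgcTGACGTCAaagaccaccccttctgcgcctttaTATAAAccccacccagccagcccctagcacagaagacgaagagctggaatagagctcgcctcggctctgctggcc
The *Meg3* window held the full element 57 bases before the start and a TATAAA 25 bases before it, while the *Dlk1* window held a single half-site 106 bases before its start. Full elements were present in 2 of the 8 windows (*Meg3* and *Peg3*) and in 1.79% of all 32851 promoter windows. Half-sites were present in 5 of the 8 windows (*Dlk1*, *Meg3*, *Peg3*, *Igf2r* and *Grb10*) and in 20.8% of all windows. Of these genes, *Peg3* also stood higher in dilated dilator muscle, *Grb10* stood lower and *Igf2r* overlapped the untreated libraries. *Plagl1*, whose window held none of the motifs, stood higher there as well. TATAAA was present in 1 of the 8 and in 8.32% of all. A match is a run of letters in this window and no evidence of binding.

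The *H19* transcript also carries the hairpin of a microRNA on the same strand. Its mature products, from RefSeq on GRCm38.p6, lie at chr7:142577112-142577133 (5p) and chr7:142577078-142577099 (3p), both inside the *H19* gene, and are shown because the *H19* UMIs below come from their host transcript. The seed, bases 2 to 8, is in capitals.
mmu-miR-675-5p: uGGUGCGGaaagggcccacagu
mmu-miR-675-3p: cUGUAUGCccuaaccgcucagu
The seeds of the 2 arms differ, GGUGCGG against UGUAUGC, and the levels of the mature microRNAs were not measured.

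The matrices held 34357 nuclei and 109565284 UMIs (unique molecular identifiers, each a counted transcript molecule), with 5189437 to 25136427 UMIs per library and a median of 2775 to 4697.5 UMIs per nucleus. The 8 genes made up 61806 UMIs, or 0.0564% of the total. Libraries untreated 1 and dilated 1 had 63 cell barcodes in common, 59 of them with the same cell type, and 74 of the 1479 nuclei (5.00%) of untreated 1 carried a barcode found in another library. Of 30 marker genes set for the 10 labelled cell types, 18 were highest in their own type. All 3 markers were highest in their own type in dilator muscle (*Adra1a*, *Nos1*, *Chrm2*), sphincter 1 (*Chrm3*, *Ttn*, *Nptx2*), stroma 2, leukocytes and endothelial cells. The 3 set for the ciliary body (CB; *Col1a2*, *Myh11*, *Acta2*) ranked 6, 9 and 9 of 10 there, at 9.87, 50.1 and 52.1 CPM (UMIs scaled to a common total per library and cell type), and *Pax6* and *Slc4a4*, set for the ciliary body epithelium (CBE), were highest in CB, so the 2 ciliary labels are used here as the deposited names alone.

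In untreated irises *Meg3* and *Cdkn1c* were highest in stroma 2, *Plagl1* in stroma 1 and *H19* in sphincter 1, while *Grb10*, *Igf2r* and *Peg3* were spread over the cell types. Levels are given as CPM, mean ± SD over the 3 untreated libraries, and are compared within a gene because they are not scaled by length. *Meg3* stood at 525 ± 36.3 CPM in stroma 2 and 255 ± 56.6 CPM in CBE. The next cell type, leukocytes, was at 31.5 ± 1.47 CPM, and the libraries of the 3 cell types did not overlap. Of its 16087 UMIs in all libraries, 10545 came from stroma 2 nuclei. *Plagl1* was highest in stroma 1 at 92.8 ± 5.23 CPM and followed at 20.9 ± 3.99 CPM in CBE, again without overlap, and lowest in dilator muscle at 3.67 ± 0.480 CPM. *Cdkn1c* was highest in stroma 2 at 70.4 ± 9.81 CPM, without overlap with sphincter 1 at 23.3 ± 16.6 CPM, and lowest in CB at 1.78 ± 1.70 CPM.

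**Figure D1:**
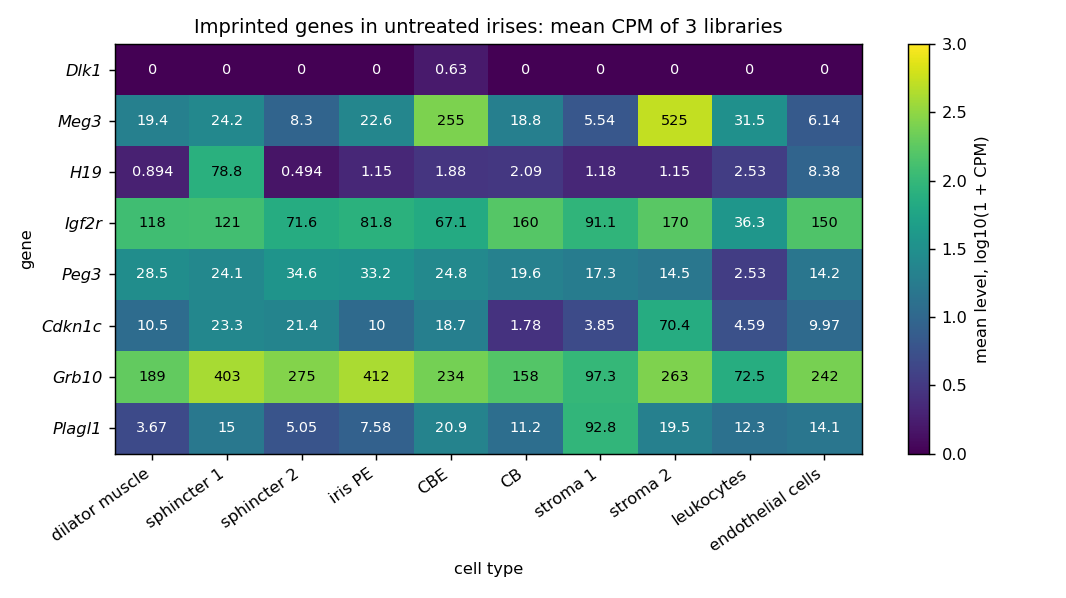
Mean level of each gene (rows) in each cell type (columns) over the 3 untreated libraries, with the colour on a log10(1 + CPM) scale and the CPM printed in each cell; levels are comparable along a row only. *Meg3* stands at 525 CPM in stroma 2, *Plagl1* at 92.8 CPM in stroma 1, *H19* at 78.8 CPM in sphincter 1, and *Dlk1* is at 0 in 9 of the 10 cell types.

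*H19* was concentrated in sphincter 1, the *Ttn*-rich sphincter cells, at 78.8 ± 48.3 CPM. Every untreated sphincter 1 library lay above every library of the next cell type, endothelial cells, at 8.38 ± 9.96 CPM from 2 UMIs. In the 8 other cell types *H19* was at 0.494 to 2.53 CPM, and the libraries of neighbours in that order overlapped. After each nucleus was thinned to 1000 UMIs, 7.78 ± 3.65% of sphincter 1 nuclei held an *H19* UMI (13.7% before thinning), against 0.00 to 0.383% in the cell types other than endothelial cells. *Dlk1* was at the edge of detection in untreated irises, with 1 UMI in CBE and 0 UMIs in each of the other 9 cell types.

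*Grb10* and *Igf2r* were found in every cell type. *Grb10* was highest in iris PE at 412 ± 39.2 CPM and in sphincter 1 at 403 ± 52.5 CPM, a pair whose libraries overlapped. Sphincter 2 followed at 275 ± 35.04 CPM, without overlap with sphincter 1, and leukocytes were lowest at 72.5 ± 51.9 CPM. *Igf2r* was at 170 ± 40.5 CPM in stroma 2, 160 ± 20.8 CPM in CB, 150 ± 33.6 CPM in endothelial cells, 118 ± 1.30 CPM in dilator muscle and 121 ± 21.0 CPM in sphincter 1, and each of these overlapped the next. It was lowest in leukocytes, at 36.3 ± 27.4 CPM from 12 UMIs. *Peg3* lay between 14.2 ± 12.9 CPM in endothelial cells and 34.6 ± 9.99 CPM in sphincter 2, with 2 UMIs in leukocytes, and each cell type overlapped the next in that order.

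The genes whose untreated pattern over the 10 cell types was most like each of these were found by Pearson correlation of log2(1 + mean CPM), among genes at 50 CPM or more in at least 1 cell type. For *H19* they were *Ttn* (r = 0.93), *Pcp4l1* (r = 0.88) and *Dmd* (r = 0.86), all highest in sphincter 1. For *Meg3* they were *Grin2b* (r = 0.91), *Cacna1g* (r = 0.91) and *Ntrk2* (r = 0.89), each highest in CBE or stroma 2. *Igf2r* was most like its antisense partner *Airn* (r = 0.96), then *Ercc6l2* (r = 0.90) and *Eif4enif1* (r = 0.89), all highest in CB. For *Dlk1* the nearest were *Insrr* (r = 0.99), *Gm47144* (r = 0.96) and *9330185C12Rik* (r = 0.94), which rests on its single untreated UMI in CBE. Each r is over 10 cell types of the same 3 libraries.

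Dilation set *Dlk1* apart in dilator muscle, by the values that chose it. The 3 untreated libraries held 0 UMIs among 15030870 dilator muscle UMIs, and the constricted libraries 3, 1 and 0 UMIs. Dilated 1 held 52 UMIs (5.13 CPM) and dilated 2 held 63 UMIs (12.6 CPM), so both dilated libraries lay above all 6 others. Against a floor of 3 UMIs over the untreated group, the pooled level of the 115 dilated UMIs was at least 41.8-fold higher on TMM-scaled totals (TMM, trimmed mean of M values), and at least 38.1-fold higher on plain totals. This bound allows for counting error in the untreated libraries alone, with the dilated level taken as observed. It was 41.6-fold without nuclei whose barcode occurs in a second library. Among libraries with consecutive numbers in the labels, untreated 1, constricted 1 and dilated 1 were at 0, 0.581 and 5.13 CPM, and the bound from that series alone was at least 3.13-fold. In the other series, untreated 2, untreated 3, constricted 3 and dilated 2 were at 0, 0, 0 and 12.6 CPM. The bound was 22.4-fold without untreated 2, 24.2-fold without untreated 3, 75.2-fold without dilated 1 and 27.2-fold without dilated 2.

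The *Dlk1* UMIs came from few nuclei. In dilated 1, 37 of 2567 dilator muscle nuclei held at least 1 *Dlk1* UMI, and in dilated 2, 27 of 1306 did. Of the 64 nuclei, 47 held 1 UMI each and 17 held 2 or more, up to 12, and those 17 carried 68 of the 115 UMIs. After thinning to 1000 UMIs per nucleus the share was 0.507% (exact 95% binomial interval 0.270 to 0.865%) in dilated 1 and 1.07% (0.588 to 1.79%) in dilated 2. In untreated 1, 0 of 400 nuclei held one (exact 95% upper limit 0.918%), in untreated 2, 0 of 2070 (0.178%), and in untreated 3, 0 of 1861 (0.198%). A floor of 3 counts gives 0.75, 0.145 and 0.161%. These intervals and limits cover counting error only, and not the random draw of UMIs in thinning. A separate draw gave a share of 0.964 ± 0.371% in the dilated libraries and 0 in the untreated ones. In the 9 other cell types, the 8 libraries together held 13 *Dlk1* UMIs, at most 3 in any library and cell type. Most of these too were in dilated libraries. Stroma 2 held 5 dilated (3 and 2 by library), 1 constricted and 0 untreated UMIs. Iris PE held 2, 1 and 0, CBE 2, 0 and 1, and stroma 1 held 1, 0 and 0, in the same order.

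The nuclei with a *Dlk1* UMI were not deeper than the rest of the dilated dilator muscle. Their median was 3652 UMIs against 3802 in dilated 1 and 3236 against 3672 in dilated 2, and none was called a doublet. They held more *Meg3*, at 354 CPM against 185 CPM in dilated 1 and 165 CPM against 60.6 CPM in dilated 2. These levels rest on 52 and 15 UMIs, in 27.0% and 18.5% of the nuclei with a *Dlk1* UMI. *Grb10* was at 88.5 against 120 CPM in dilated 1 and 110 against 105 CPM in dilated 2. *Cdkn1c* and *Plagl1* had 0 UMIs in the nuclei with a *Dlk1* UMI, and *Mirg* had 0 in dilated 1 and 2 in dilated 2. *Peg3* was at 102 against 39.0 CPM in dilated 1 and 43.9 against 34.3 CPM in dilated 2, from 15 and 4 UMIs. *Igf2r* was at 61.3 against 142 CPM in dilated 1 and 76.9 against 105 CPM in dilated 2, from 9 and 7 UMIs. *Adra1a*, the alpha-1A adrenergic receptor that marks dilator muscle, was at 381 against 344 CPM in dilated 1 and at 143 against 245 CPM in dilated 2. These are descriptions of nuclei within a library, without a test.

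*Meg3*, the noncoding neighbour of *Dlk1*, was also higher in dilated dilator muscle. Its untreated libraries were at 26.2, 17.9 and 14.1 CPM, its constricted libraries at 38.3, 23.9 and 14.7 CPM, and its dilated libraries at 188 and 62.5 CPM. The dilated libraries lay above the other 6, with a log2 fold change of 2.93, and dilated 1 was the higher by far. Without dilated 1 the log2 fold change was 2.04, and without dilated 2 it was 3.47. With a term for the series of library numbers it was 2.47. Untreated 1, constricted 1 and dilated 1, of consecutive numbers, each had the highest *Meg3* of their treatment, in stroma 2 and iris PE as well. The part of the series in the difference was not tested. The share of dilator muscle nuclei with a *Meg3* UMI, thinned to 1000 UMIs, was 10.4% in dilated 1 and 3.75% in dilated 2, against 1.18 to 2.75% in untreated libraries and 0.824 to 3.54% in constricted ones. In dilated 2 that share lay close to the highest constricted library in this random draw of UMIs.

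*Meg3* is abundant in stroma 2, whose marker genes were therefore read in the same dilator muscle nuclei. All 3 stroma 2 markers (*Tfap2b*, *Dcn*, *Col1a2*) had UMIs there, with a summed level of 61.6 to 77.3 CPM in untreated, 47.0 to 69.5 CPM in constricted and 32.9 to 53.0 CPM in dilated libraries. By marker, *Dcn* was at 31.6 and 20.8 CPM in the dilated libraries against 43.2 to 61.7 CPM untreated, and it was lower in dilated stroma 2 as well. *Tfap2b*, at 13.03 and 9.82 CPM, lay within the untreated range of 8.73 to 18.7 CPM, and *Col1a2*, at 8.39 CPM in dilated 1 and 2.20 CPM in dilated 2, lay above and below the untreated 3.48 to 6.86 CPM. Dilated 1 had both the higher *Meg3* and the higher marker sum of the 2 dilated libraries. In dilated 1 the ratio of *Meg3* to *Tfap2b* was 14.4 in dilator muscle and 0.327 in stroma 2, and in dilated 2 it was 6.37 and 0.176. The untreated ratios in dilator muscle ranged from 0.754 to 3.0, and the constricted ratios were 2.51, 5.4 and 2.58. Constricted 2 therefore lay close to dilated 2, and this ratio did not clearly set dilated 2 apart. The part of stroma 2 RNA in the *Meg3* difference was not tested beyond these values.

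**Figure D2:**
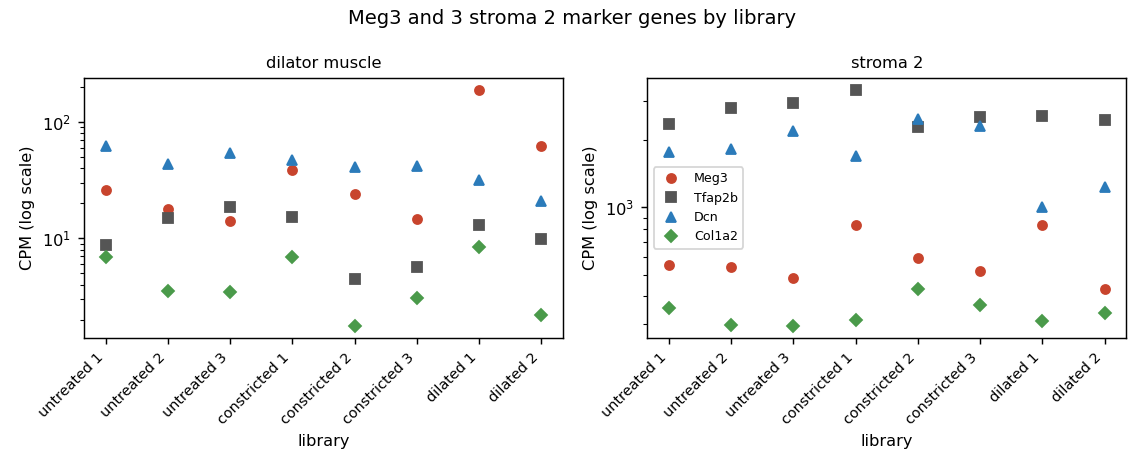
*Meg3* and 3 stroma 2 marker genes (points, by gene) in each of the 8 libraries on a log CPM axis, in dilator muscle (left) and in stroma 2 (right). In dilator muscle *Meg3* reached 188 and 62.5 CPM in the dilated libraries while *Tfap2b* was at 13.03 and 9.82 CPM there.

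*Cdkn1c*, the p57 cell cycle inhibitor, went the other way in dilator muscle. It was at 6.86, 13.9 and 10.6 CPM in untreated, 7.36, 7.09 and 11.1 CPM in constricted and 1.88 and 2.60 CPM in dilated libraries. The dilated libraries lay below all others, with a log2 fold change of -2.17. *Grb10* was at 170, 202 and 194 CPM in untreated and 120 and 105 CPM in dilated libraries, below all 6 others, with a log2 fold change of -0.57. *Plagl1* (0.77) and *Peg3* (0.53) had dilated libraries above the untreated ones, and *Igf2r* (0.23) overlapped. *H19* did not pass the low-count filter in dilator muscle, with 15 UMIs over the untreated libraries, 0 over the constricted ones, 20 in dilated 1 and 1 in dilated 2.

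**Figure D3:**
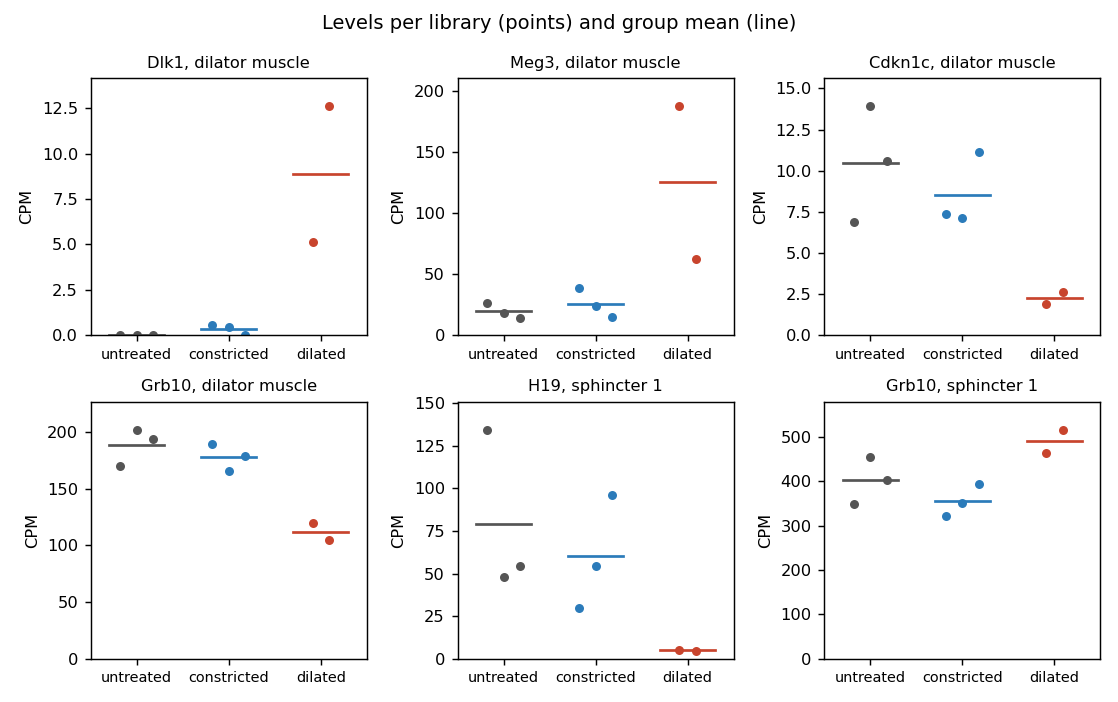
Level of a gene in 1 cell type (CPM, from 0) in each library (points) by treatment, with the group mean as a line. *Dlk1* and *Meg3* stand higher and *Cdkn1c* and *Grb10* lower in the 2 dilated libraries of dilator muscle, and *H19* is at 5.45 and 4.62 CPM in the dilated libraries of sphincter 1.

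In sphincter 1, *H19* moved opposite to *Dlk1* in dilator muscle, again by the values that chose it. The untreated libraries held 25, 30 and 60 UMIs (134, 47.8 and 54.2 CPM) and the constricted libraries 9, 9 and 29 UMIs (29.6, 54.5 and 96.2 CPM). The dilated libraries held 2 UMIs each (5.45 and 4.62 CPM), below all 6 others. The log2 fold change was -3.60. Pooled over libraries, *H19* was 12.0-fold lower, from 4 dilated and 115 untreated UMIs. Within libraries of consecutive numbers it was at 134 CPM untreated and 5.45 CPM dilated in 1 series, and at 47.8 and 54.2 CPM untreated and 4.62 CPM dilated in another. After thinning, 0 of 101 dilated 1 nuclei held an *H19* UMI, which allows up to 2.97% by 3 counts and 3.59% by the exact 95% interval, and 1 of 129 in dilated 2 did, against 12.0, 4.42 and 4.53% in the untreated libraries. In the constricted libraries it was 1.96, 0 and 10.6%. In this random draw of UMIs the share therefore did not separate the dilated libraries from constricted 2, with 34 nuclei. Before thinning the share was 7.77, 20.6 and 21.1% in the constricted libraries and 1.94 and 1.52% in the dilated ones. Another draw gave 3.76 ± 2.32% in the constricted libraries and a mean of 0.495% in the dilated ones.

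Of the 3 sphincter 1 marker genes, *Ttn* was also lower with dilation, at 393 to 510 CPM against 1325 to 2038 CPM untreated. *Chrm3* was at 3971 to 5203 CPM against 3787 to 4086 CPM, and *Nptx2* at 147 to 166 CPM against 100.2 to 124 CPM. Summed over the 3 markers, the dilated libraries were at 4648 to 5743 CPM and the untreated at 5224 to 6247 CPM. The part of cell composition in the *H19* difference was not tested.

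Other genes of the set differed little in sphincter 1. *Grb10* was at 349, 454 and 404 CPM in untreated and 464 and 517 CPM in dilated libraries, with a log2 fold change of 0.31. *Igf2r* had a log2 fold change of -0.50 with dilated libraries below the untreated ones. *Cdkn1c* (0.25) and *Meg3* (-0.07) overlapped, and *Cdkn1c* was at 10.9 CPM in dilated 1 and 50.8 CPM in dilated 2, so that leaving out dilated 2 turned its log2 fold change to -1.31. Without called doublets it was -0.35. *Meg3* there turned to 0.46 without dilated 2. *Dlk1* gave 0 UMIs in sphincter 1 in all 8 libraries.

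In the 8 cell types that played no part in the choice, dilation was tested with edgeR's quasi-likelihood test, and calls needed a log2 fold change beyond 0.6 in either direction and, after Benjamini-Hochberg adjustment, p below 0.05. Tested fold changes are given ± SE, the absolute log2 fold change over the square root of the F statistic of that test. Of 29 tests, in which 6 of the genes passed the low-count filter somewhere, 0 were called by edgeR and 0 by DESeq2, against 1.04% called over all genes tested in these cell types. DESeq2 gave no adjusted p for 6 of the 29. With a term for the series of library numbers, 2 were called, *Meg3* in iris PE and *Peg3* in stroma 2. The share of all genes called with that term is not given here, so the 2 are no result about the set. At an unadjusted p under 0.05 the count was 6 of 29, of which 5 were higher, against 9.6% of all tests. The 6 include *Peg3* in CB, which passed the filter only through the treated libraries, so the count is no result about the set. *Dlk1* and *H19* did not pass the filter in any of the 8 cell types. The median log2 fold change over the 29 was 0.18, against 0.00 over all genes.

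*Peg3*, a zinc finger gene of growth and maternal behaviour, came nearest to a call. In stroma 2 it was at 12.1 to 16.3 CPM in untreated, 19.6, 24.8 and 22.3 CPM in constricted and 29.6 and 27.5 CPM in dilated libraries. The 3 groups did not overlap, and the log2 fold change with dilation was 0.97 ± 0.23 (edgeR adjusted p = 0.0651). It was called in 2 of 16 alternatives, over which the adjusted p ranged from 0.0226 to 0.318. In CB *Peg3* was at 11.6, 23.8 and 23.6 CPM untreated and 56.4 and 34.4 CPM dilated, a log2 fold change of 1.33 ± 0.40 (edgeR adjusted p = 0.408), and at 31.1, 42.8 and 63.0 CPM constricted, above every untreated library. In CB it passed the low-count filter only through the treated libraries, so its tests there are no support for a difference.

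*Igf2r* in sphincter 2 was at 73.3, 74.9 and 66.7 CPM in untreated and 174 and 88.6 CPM in dilated libraries, a log2 fold change of 0.94 ± 0.30 (edgeR adjusted p = 0.0893). Dilated 1 carried much of it: over the alternatives the log2 fold change ran from 0.45 to 1.30, and the adjusted p from 0.0544 to 0.708. *Meg3* in iris PE was at 28.4, 23.1 and 16.3 CPM untreated, 68.0, 17.2 and 14.96 CPM constricted, and 99.3 and 33.6 CPM dilated. Its log2 fold change with dilation was 1.69 ± 0.51 (edgeR adjusted p = 0.232), it was called in 2 of 16 alternatives, and constricted 1 lay between the dilated libraries. The log2 fold change was 0.73 without dilated 1 (edgeR adjusted p = 0.908) and 2.21 without dilated 2 (0.137). The summed stroma 2 markers in iris PE were at 57.7 to 69.5 CPM untreated, 35.3 to 68.3 CPM constricted and 34.6 to 61.2 CPM dilated. *Plagl1* in stroma 1, its highest cell type, was at 135 and 113 CPM dilated against 88.6 to 98.7 CPM untreated (log2 fold change 0.44 ± 0.19, edgeR adjusted p = 0.305). *Grb10* in CBE was at 169 and 160 CPM against 228 to 239 CPM (-0.47 ± 0.21, edgeR adjusted p = 1.00).

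Where *Meg3* is most abundant, no difference was detected. In stroma 2 its libraries were at 551, 540 and 483 CPM untreated and 834 and 432 CPM dilated, a log2 fold change of 0.31 ± 0.24 (edgeR adjusted p = 0.743). Dilated 1 stood above and dilated 2 below every untreated library. In CBE the log2 fold change was 0.18 ± 0.29 (edgeR adjusted p = 1.00).

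With constriction, 0 of 41 tests of the 8 genes in the 10 cell types were called by edgeR and 0 by DESeq2, which gave no adjusted p for 7, against 0.0118% called over all genes. At an unadjusted p under 0.05 the count was 5 of 41, against 5.25% of all tests. The 5 include *Peg3* in CB and *Meg3* in sphincter 1, which passed the low-count filter only through treated libraries. This count is therefore no result about the set. *Dlk1* in dilator muscle had 3, 1 and 0 UMIs against 0 in every untreated library. It is among the 41, but with these counts it passed the low-count filter only through the dilated libraries, so its test is not read. *H19* in sphincter 1 had a log2 fold change of -0.08 ± 0.40 (edgeR adjusted p = 0.993), with untreated and constricted libraries overlapping, and its pooled ratio was 1.02 (exact 95% interval 0.710 to 1.44, for counting error only). The sign of that fold change turned without untreated 1 (0.26) and without constricted 1 (0.34). The untreated libraries here are those that the choice of *H19* used. Its p and interval are therefore no support for or against a difference. *Grb10* in CBE was at 139, 175 and 165 CPM constricted (-0.52 ± 0.20, edgeR adjusted p = 0.563), and *Peg3* in stroma 2 had 0.55 ± 0.23 (edgeR adjusted p = 0.909).

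**Figure D4:**
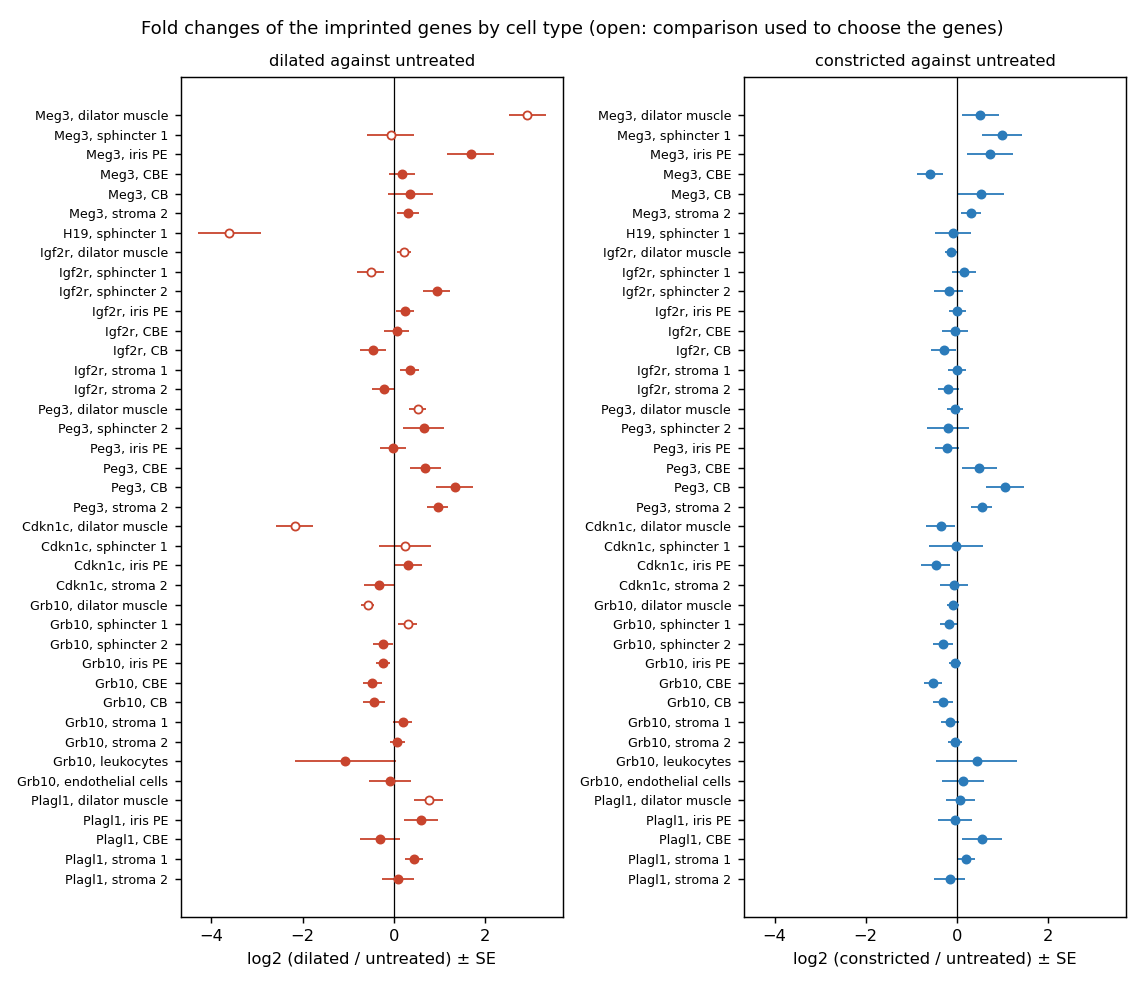
Log2 fold change ± SE of each gene in each cell type where it passed the low-count filter, for dilated (left) and constricted (right) against untreated libraries; *Dlk1*, with 0 untreated UMIs, has no fold. Open points mark the 2 comparisons used to choose the genes, where *Meg3* is at 2.93 and *H19* at -3.60, and no filled point was called. Bars are worked out from the F statistic, and those of open points are not read as a test.

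Neighbours of the set within the same imprinted domains were listed as 16 genes, of which 15 had a row and 10 passed the filter somewhere. Over 10 cell types, 2 of 44 dilation tests were called, both higher, against 3.34% of all tests. The list's median log2 fold change was 0.08 against 0.00 for all genes. Because the list was chosen with earlier results of these data known, its count is no support for it. *Mirg*, the microRNA host transcript at the far end of the *Dlk1* domain (chr12:109729764-109749460), was called in dilator muscle, where 13.3% of all genes were called. With 5 untreated and 3 constricted UMIs against 46 dilated ones, it passed the low-count filter through the dilated libraries, so its call is no support for the list. It had 0, 0.563 and 0.158 CPM in untreated, 0.387, 0.443 and 0 CPM in constricted and 3.36 and 2.40 CPM in dilated libraries (log2 fold change 3.23 ± 0.71, edgeR adjusted p = 0.00928), so that the dilated libraries lay above all others. The call was lost without dilated 1 (edgeR adjusted p = 0.0977) and without untreated 3 (0.0659). *Airn*, the antisense RNA of *Igf2r*, rose in stroma 1, where 1.17% of genes were called, from 258, 245 and 275 CPM to 512 and 420 CPM (0.86 ± 0.16, edgeR adjusted p = 0.00977), a call lost without dilated 1 (0.106), untreated 2 (0.0590) or untreated 3 (0.0596). *Igf2r* itself had 0.36 ± 0.21 in those nuclei (edgeR adjusted p = 0.491). Constriction gave 0 calls in 44 tests by edgeR, against 0.0118% called over all genes, and 0 by DESeq2. At an unadjusted edgeR p under 0.05 the count was 3, against 5.25% of all tests. This count is no result about the list.

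Imprinted genes elsewhere in the genome were listed as 29, of which 22 had a row and 18 were tested. With dilation 7 of 127 tests were called, 6 higher and 1 lower, against 3.34% of all tests. In dilator muscle 6 of 18 were called, against 13.3% of all genes. This list too was chosen with earlier results of these data known, so these counts are no support for it. The list's median was 0.04 against 0.00 for all genes. In dilator muscle *Snrpn*, a splicing protein gene, rose from 4.36, 2.25 and 3.95 CPM to 10.4 and 6.81 CPM (1.55 ± 0.35, edgeR adjusted p = 0.0111). *Mest*, a hydrolase gene, rose from 6.23, 7.74 and 7.75 CPM to 11.2 and 18.4 CPM (1.15 ± 0.29, edgeR adjusted p = 0.0201). *Nap1l5*, of the nucleosome assembly protein family, rose from 180, 158 and 168 CPM to 262 and 332 CPM (1.02 ± 0.21, edgeR adjusted p = 0.00625). These calls were lost without single libraries: *Snrpn* without dilated 1 (edgeR adjusted p = 0.115) or untreated 2 (0.0785), *Mest* without dilated 2 (0.253), untreated 2 (0.0640) or untreated 3 (0.0660), and *Nap1l5* without dilated 2 (0.0809). Outside the naming rule, *Gnas*, the stimulatory G protein alpha subunit, and *Zdbf2* were called higher there, the latter with overlapping libraries, and *Dcn*, which is as well a stroma 2 marker, was called lower. *Mest*, there named after its values were seen, was called in sphincter 2 too (2.76 ± 0.49, edgeR adjusted p = 0.000811), where 2.87% of genes were called. Dilated 1 at 44.5 CPM lay within the untreated range of 10.4 to 45.8 CPM there, and dilated 2 was at 174 CPM. With 21 untreated, 8 constricted and 63 dilated UMIs, *Mest* passed the low-count filter in sphincter 2 only with the dilated libraries. Its call there is therefore no support for the list. Constriction gave 0 calls in 127 tests by edgeR, against 0.0118% called over all genes, and 0 by DESeq2. At an unadjusted edgeR p under 0.05 the count was 8, against 5.25% of all tests. This count is no result about the list.

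The IGF pathway list covered ligand, receptors, binding proteins and adaptors, with 16 of 17 genes in the matrices and 15 tested. It also held the messenger RNA binding protein genes *Igf2bp1* and *Igf2bp2*, both among the calls below. With dilation 7 of 99 tests were called, 5 higher and 2 lower, against 3.34% of all tests, with a list median of 0.05. In dilator muscle 4 of 14 were called, against 13.3% of all genes. The list was chosen with earlier results of these data known, so these counts are no support for it. With a term for the series of library numbers the list had 14 calls. The share of all genes called with that term is not given here, so the 14 are no result about the list. *Igfbp2*, a secreted IGF binding protein, rose most clearly, in dilator muscle from 18.1, 12.0 and 16.1 CPM to 76.6 and 106 CPM (2.81 ± 0.22, edgeR adjusted p = 1.5e-05). It also rose in stroma 2, where 1.73% of genes were called, from 14.5, 8.44 and 11.9 CPM to 48.5 and 23.4 CPM (1.77 ± 0.34, edgeR adjusted p = 0.0228). Among receptor adaptors, *Irs2* rose in dilator muscle (1.04 ± 0.26, edgeR adjusted p = 0.0183) and *Irs1* in stroma 2 (1.09 ± 0.19, edgeR adjusted p = 0.0140). *Grb14*, of the same adaptor family as *Grb10*, fell in dilator muscle from 23.7, 30.0 and 27.2 CPM to 7.01 and 10.4 CPM (-1.51 ± 0.25, edgeR adjusted p = 0.00156). The messenger RNA binding protein gene *Igf2bp1* fell in iris PE, where 0.602% of genes were called, from 41.2 to 45.1 CPM to 23.0 and 21.2 CPM (-0.90 ± 0.17, edgeR adjusted p = 0.0348), and *Igf2bp2*, outside the naming rule, was called higher in dilator muscle. *Igfbp2* and *Grb14* in dilator muscle were called in all 16 alternatives. *Irs2* lost its call without dilated 2 (edgeR adjusted p = 0.239) or untreated 2 (0.0808). *Igfbp2* and *Irs1* in stroma 2 lost theirs without dilated 1 (0.238 and 0.0982), untreated 2 (0.142 and 0.0619) or untreated 3 (0.138 and 0.126), and *Igf2bp1* without either dilated library (0.238 and 0.237), untreated 2 (0.193) or untreated 3 (0.183).

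Under constriction 0 of 99 IGF tests were called by edgeR, against 0.0118% called over all genes, and 1 by DESeq2. At an unadjusted edgeR p under 0.05 the count was 9, against 5.25% of all tests. This count is no result about the list. The gene that DESeq2 called was *Igfbp2* in dilator muscle, named after its values were seen. Its constricted libraries, at 40.7, 43.0 and 49.0 CPM, lay above every untreated and below every dilated library, with a log2 fold change of 1.58 ± 0.21 (edgeR adjusted p = 0.0515). It was called in 9 of the 16 alternatives.

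The Notch pathway was listed because DLK1 is a noncanonical ligand of that family, with 20 genes, 16 of them tested. With dilation 6 of 92 tests were called, 4 higher and 2 lower, against 3.34% of all tests, with a list median of 0.02. In dilator muscle 3 of 13 were called, against 13.3% of all genes. The list was chosen with earlier results of these data known, so these counts are no support for it. With a term for the series of library numbers the list had 10 calls. How many of all genes were called with that term is not given here, so the 10 are no result about the list. *Hes1*, a transcriptional repressor that Notch signalling induces, rose in 3 cell types. In dilator muscle it went from 48.6, 51.1 and 49.8 CPM to 109 and 138 CPM (1.499 ± 0.20, edgeR adjusted p = 0.000492). In stroma 2 it went from 47.0 to 60.4 CPM to 94.9 and 162 CPM (1.34 ± 0.24, edgeR adjusted p = 0.0197). In stroma 1 it went from 9.24 to 10.8 CPM to 55.7 and 28.3 CPM (2.08 ± 0.37, edgeR adjusted p = 0.00730). With 35 untreated, 16 constricted and 57 dilated UMIs in stroma 1, it passed the low-count filter there through the dilated libraries. Its call in stroma 1 is therefore no support for the list. In dilator muscle the ligand *Jag1* rose (1.84 ± 0.32, edgeR adjusted p = 0.00219) and the receptor *Notch2* fell from 270, 147 and 147 CPM to 96.4 and 81.0 CPM (-0.86 ± 0.21, edgeR adjusted p = 0.0169). *Rbpj*, the DNA-binding partner of the cleaved Notch receptor, fell in leukocytes (-1.75 ± 0.39, edgeR adjusted p = 0.0301), where 1.32% of genes were called and libraries held 13 to 106 nuclei. *Hes1* and *Jag1* in dilator muscle were called in all 16 alternatives. *Hes1* lost its call in stroma 1 without dilated 1 (edgeR adjusted p = 0.286) or untreated 3 (0.0839), while DESeq2 gave it no adjusted p there, and in stroma 2 without dilated 2 (0.109), untreated 2 (0.0974) or untreated 3 (0.138). *Notch2* lost its call without dilated 1 (0.0680), dilated 2 (0.106) or untreated 1 (log2 fold change -0.58), and *Rbpj* without untreated 1 (0.0937) or dilated 2 (0.364). Constriction gave 0 calls in 92 tests by edgeR, against 0.0118% called over all genes, and 0 by DESeq2. At an unadjusted edgeR p under 0.05 the count was 10, against 5.25% of all tests. This count is no result about the list.

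**Figure D5:**
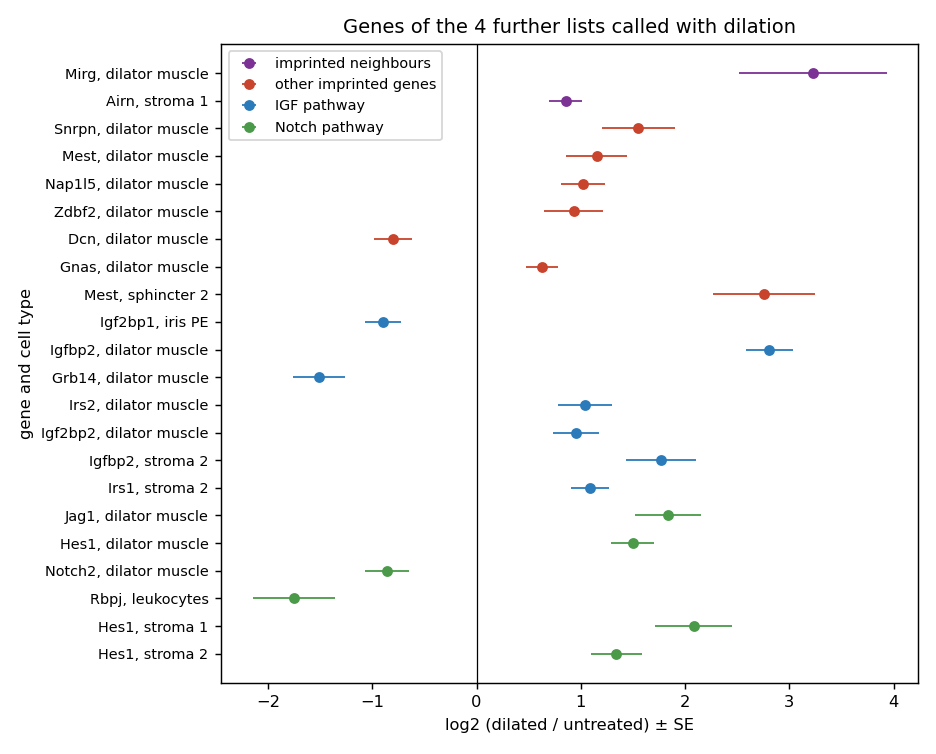
Log2 fold change ± SE, dilated against untreated, of the 22 gene and cell type pairs called in the 4 further lists (colours), of which 14 are in dilator muscle. *Mirg* (3.23) and *Igfbp2* (2.81) in dilator muscle are farthest to the right.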

How the data were processed

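Single-nucleus RNA was read in 8 libraries (untreated 3, constricted 3, dilated 2). The authors aligned 10x Genomics 3' v3 reads to an mm10 pre-mRNA index with Cell Ranger 3.1.0, filtered nuclei by their number of transcripts (by the deposited values, genes detected) and mitochondrial share, and assigned cell types in Seurat. They deposited UMI counts per gene and nucleus, the total counts per nucleus and the mitochondrial percent per nucleus. Deposited totals exceeded the matrices by 2929 UMIs in 2707 nuclei. Totals used here were summed from the matrices. Which library belonged to which processing batch or sequencing run is not given in the sources used here. UMIs were summed per library and deposited cell type. Levels are CPM of those sums. All 8 libraries entered 1 edgeR 4.0.16 quasi-likelihood fit per cell type (R 4.3.3, TMM, filterByExpr, two-sided), with Benjamini-Hochberg adjustment over all genes of the cell type. Calls needed a log2 fold change beyond 0.6 in either direction and adjusted p below 0.05. Each SE was worked out from the F statistic and not taken from the fit. Alternatives used DESeq2 1.42.0, other scalings, no filter, block terms, each library left out, and nuclei without Scrublet doublets (scanpy 1.11.5, 359 nuclei) or shared barcodes, the last chosen after seeing the data. The fit was tested on dilator muscle counts simulated with the same spread for every gene and no series effect. That setting differs from these libraries, so it is no check of the p-values given here. Replicates of a group differed beyond sampling noise (chi-square per degree of freedom 2.23 to 17.1 in dilator muscle). Nothing says that same-numbered libraries share animals, so libraries were unpaired. The p-values measure the spread between libraries, which holds differences between pools of irises and between series of library numbers together. The main fit has no term for the series. The genes and lists were chosen with earlier results of these data known. From each list, the called genes with non-overlapping libraries were named, at most the 3 with the largest fold change per list, contrast and cell type. Other genes named are said to lie outside this rule or to be chosen after their values were seen. Sequences are from RefSeq (GRCm38.p6) and positions from GENCODE vM21.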

Additional observations from a re-analysis of the deposited data

Results flagged for a closer look

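With dilation, 2 genes of the set moved in opposite directions in different cell types, with the dilated libraries all above the untreated ones in 1 cell type and all below them in another. *Igf2r* had a log2 fold change of 0.94 in sphincter 2, against -0.46 in CB and -0.50 in sphincter 1. *Grb10* had 0.31 in sphincter 1, against -0.43 in CB, -0.47 in CBE, -0.57 in dilator muscle, -0.24 in iris PE, -1.06 in leukocytes and -0.23 in sphincter 2. None of these was called where it was tested. The share of all genes that separate in this way was not counted, so the 2 genes are no result about the set. Sphincter 1 and dilator muscle hold the comparisons used to choose the genes. *Grb10* in leukocytes rests on 22 untreated and 6 dilated UMIs. The difference between cell types was not tested, and the cell types come from the same libraries.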

How the results depend on the processing

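Of the counts of calls and main values, 186 kept their direction and side of the threshold, 29 moved and 2 reversed. With no filter on low counts, the dilation calls were 2 among the genes of the set, 13 in the IGF list and 10 in the Notch list, and constriction gave 3 and 3 in those lists. With a term for the series of library numbers, dilation gave 2, 11 (other imprinted genes), 14 (IGF) and 10 (Notch), and constriction 1 (IGF). The genes of the set called in both settings were *Meg3* in iris PE and *Peg3* in stroma 2. The IGF constriction count was also 1 with library totals, DESeq2 and without shared barcodes. Leaving out 1 library at a time gave dilation counts of 0 to 3 for imprinted neighbours, 1 to 8 for other imprinted genes, 2 to 9 for IGF and 3 to 8 for Notch, and IGF constriction counts of 0 to 1. *H19* in sphincter 1 with constriction ran from -0.73 to 0.34 (log2), and the *Dlk1* bound from 4.49 to 6.23 (log2). The bound was 1.65 in the series of untreated 1 and dilated 1. It has no value under the filter, DESeq2 or block settings. The replicate block gave 11 IGF calls with dilation and 1 with constriction, and moved no other count by over 1.5 times. Shares of all genes called under the alternative settings are not given here. Counts of calls under them are therefore no result about the set or the lists. Correlations between libraries were of deviations from the group mean, so the 2 dilated libraries mirror each other (0.566 and -0.566 with constricted 1). By these, same-numbered libraries correlated above 0.1 in 5 of 7 pairs in dilator muscle. There 4 of 8 libraries correlated best with their own number, so the numbers were not taken as pairs. All libraries of 1 series but different treatments correlated above 0.1, from 0.160 to 0.566 in dilator muscle. The cause of these changes was not tested. Low counts limit *Dlk1* and *H19* most, with 132 and 309 UMIs in all.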
